A study of Danio rerio with 19 samples.

Results

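The 2 gene rows described here, ENSDARG00000021789 and ENSDARG00000100149, were taken from the 32520 rows of the count table as readouts of Wnt signalling, under the names *lef1* and *axin2*. The reference gene table pairs ENSDARG00000100149 with AXIN2, but it pairs ENSDARG00000021789 with MYOC, the gene for myocilin, and not with LEF1. The name *lef1* therefore does not hold for that row, which is called by its ID below. The row that the same table pairs with LEF1, ENSDARG00000031894, was added as a further row after this mismatch was seen, and was tested in the same way. All 3 rows were among the 20979 genes that passed the filter on low counts.

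The 19 bulk RNAseq libraries came from tail fin tissue of WIK zebrafish at 4 dpf. The groups were injured and uninjured *yap1* Crispants, injured and uninjured *wwtr1* Crispants, and injured and uninjured WT, with 3 libraries each apart from 4 of injured *yap1* Crispants. Injured fish had received a severe tail fin injury at 3 dpf, 24 h before collection, a cut that removes the fin and part of the notochord. Crispants were made by injecting Cas9 with a pair of guide RNAs against *yap1* or *wwtr1*, the genes for the transcriptional co-activators Yap1 and Taz, and each F0 animal is a mosaic of mutations. Each library pooled embryos, and the sources do not say whether the WT embryos had been injected. The labels call the libraries of a group biological replicates, and the study's methods use the term experimental repeat for fish from another breeding or day of injection, without tying it to these libraries. If libraries of a group shared a clutch, the p-values measure only the spread between these samples.

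In the Wnt/β-catenin pathway, secreted Wnt ligands bind Frizzled and LRP receptors, and this stops a cytoplasmic destruction complex from degrading β-catenin. β-catenin then enters the nucleus and acts with transcription factors of the TCF/LEF family, of which Lef1 is one. Axin2 is a scaffold protein of the destruction complex whose gene is itself switched on by the pathway, so it acts as a negative feedback regulator and is widely used as a readout. Wnt/β-catenin signalling is known to be needed for fin regeneration in zebrafish. Myocilin is a secreted glycoprotein with an olfactomedin domain, known in humans for its link to glaucoma.

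Library totals ran from 28081131 to 80837847 counts. Levels are given as CPM, counts scaled by the TMM-normalised library size, without correction for gene length. The 10 most counted genes took 15.7% to 20.8% of the counts in injured libraries and 25.5% to 32.4% in uninjured libraries. In each Crispant the RNA of its own targeted gene overlapped WT. *yap1* had 136 to 260.5 CPM in injured *yap1* Crispants against 233 to 287 CPM in injured WT, and 167 to 276 CPM in uninjured *yap1* Crispants against 134 to 289 CPM in uninjured WT. *wwtr1* had 0.444 to 1.24 CPM in injured *wwtr1* Crispants against 0.523 to 1.16 CPM in injured WT, and 0.629 to 1.19 CPM in uninjured *wwtr1* Crispants against 0.619 to 1.19 CPM in uninjured WT. Small mutations in a coding sequence need not change a gene's RNA level, so these values do not check the labels. *wwtr1* was a higher DEG in uninjured *yap1* Crispants against uninjured WT (log2 fold change 2.33, SE 0.59, edgeR adjusted p = 0.0433). It had 2.57, 7.46 and 2.66 CPM against 0.619 to 1.19 CPM. In that comparison 2.24% of all genes tested were DEGs, 461 higher and 8 lower. *wwtr1* did not pass against uninjured *wwtr1* Crispants (2.27, adjusted p = 0.0908). In injured *yap1* Crispants against injured WT it did not pass either (1.55, adjusted p = 0.46). Its difference in injury effect, *yap1* Crispants minus WT, did not pass (-0.78, adjusted p = 0.844). The paper's blots showed no substantial change of Taz protein in *yap1* Crispants. Their lysates came from pooled larvae younger than those sequenced, not from tail fin tissue, so protein and RNA were read in different samples. Markers of the epidermis were abundant in every library. The 5 genes (*krt4*, *krt5*, TP63, *cdh1* and *epcam*) summed to between 48379 and 101646 CPM in injured and between 88689 and 157796 CPM in uninjured libraries. These sums follow the most abundant of the 5, and the lowest gene mean was 314 CPM.

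The first question was how each row responded to severe tail fin injury within each genotype. ENSDARG00000021789 fell after injury in all 3 genotypes. It had 338, 444, 490.0 and 345 CPM in injured *yap1* Crispants, against 1109, 1450.2 and 1187 CPM in uninjured *yap1* Crispants. In injured *wwtr1* Crispants it had 405, 428 and 556 CPM, against 1484, 1222 and 1229 CPM in uninjured *wwtr1* Crispants. Injured WT had 476, 550 and 481 CPM, against 1028, 1219.7 and 1250.2 CPM in uninjured WT. The highest injured library, at 556 CPM, therefore lay well below the lowest uninjured one, at 1028 CPM, and no group of injured libraries overlapped a group of uninjured ones. The share of all genes whose libraries separate in this way was not counted, here or for *axin2* below.

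**Figure D1:**
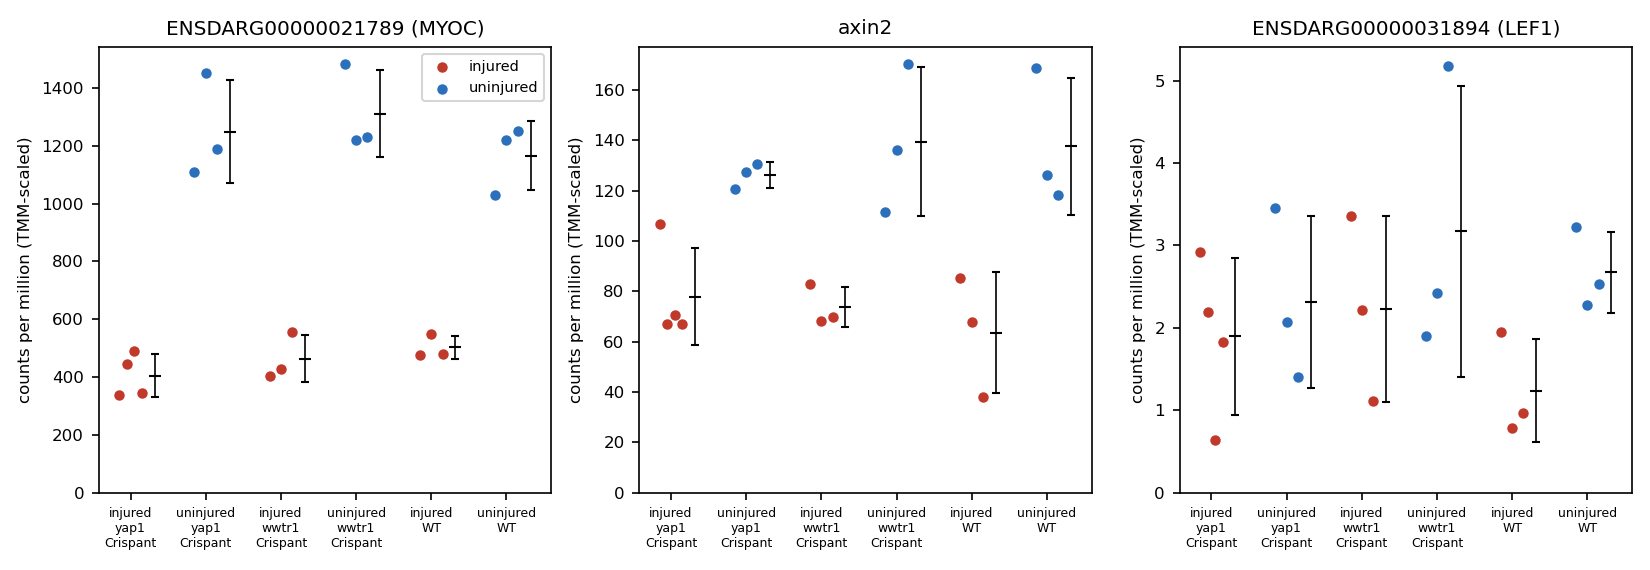
Levels of the 3 rows in every library, as TMM-scaled CPM on linear axes that start at 0. Each point is a library (red, injured; blue, uninjured), and the black bar beside each group is its mean ± SD. All injured points of ENSDARG00000021789 and of *axin2* lie below all uninjured points of the same genotype, while those of ENSDARG00000031894 overlap in both Crispants.

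The log2 fold change of ENSDARG00000021789 after injury was -1.63 in *yap1* Crispants (SE 0.17, adjusted p = 1.25e-05), which is 3.09-fold lower. It was -1.50 in *wwtr1* Crispants (SE 0.19, adjusted p = 5.05e-05), or 2.83-fold lower, and -1.22 in WT (SE 0.19, adjusted p = 0.000205), or 2.32-fold lower. Averaged over the 3 genotypes the change was -1.45 (SE 0.11, adjusted p = 1.08e-08). All adjusted p-values of such changes come from the quasi-likelihood fit of edgeR and were corrected over the 20979 genes by the Benjamini-Hochberg method. A gene was called differentially expressed (DEG) when this value was below 0.05 and its level changed by more than 1 on the log2 scale in either direction. By that rule 9.91% of all genes tested were DEGs after injury in *yap1* Crispants, 11% in *wwtr1* Crispants, 16% in WT and 17.6% for the mean effect.

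*axin2* was lower after injury in every genotype, and passed as a DEG in WT. Injured *yap1* Crispants had 107, 67.0, 70.7 and 66.9 CPM, against 121, 127 and 131 CPM in uninjured *yap1* Crispants. Injured *wwtr1* Crispants had 82.8, 68.3 and 69.9 CPM, against 112, 136 and 170.4 CPM in uninjured *wwtr1* Crispants. Injured WT had 85.1, 67.8 and 37.8 CPM, against 168.5, 126 and 118 CPM in uninjured WT. No injured library reached the lowest uninjured library of any genotype, although replicate 1 of the injured *yap1* Crispants, at 107 CPM, came close to the 112 CPM of an uninjured *wwtr1* Crispant library.

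The log2 fold change of *axin2* in WT was -1.11 (SE 0.26, adjusted p = 0.00455), which is 2.16-fold lower. The call in WT depended on single libraries. Without replicate 1 of uninjured WT the change was -0.94 (adjusted p = 0.0272), and without replicate 3 of injured WT, the library at 37.8 CPM, it was -0.81 (adjusted p = 0.0273), both short of the fold threshold. In *wwtr1* Crispants the change of -0.92 (SE 0.26, adjusted p = 0.0194) passed the p threshold but not the fold threshold. It became a DEG without replicate 1 of uninjured *wwtr1* Crispants (-1.06, adjusted p = 0.0195) or replicate 1 of the injured ones (-1.01, adjusted p = 0.0357). It missed the p threshold without replicate 3 of uninjured *wwtr1* Crispants (-0.75, adjusted p = 0.091), or replicate 2 or 3 of the injured ones (adjusted p = 0.0711 and 0.0685). In *yap1* Crispants the change of -0.70 (SE 0.24, adjusted p = 0.0508) passed neither. With each library left out it ran from -0.89 to -0.63, with adjusted p from 0.0139 to 0.129, and never reached the fold threshold. The mean effect over the 3 genotypes was -0.91 (SE 0.14, adjusted p = 5.81e-05), again below the fold threshold. By adjusted p alone, 16.7% of all genes tested passed in *wwtr1* Crispants and 42.4% passed for the mean effect.

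ENSDARG00000031894, the row paired with LEF1, had few counts, between 25 and 238 in a library, and no change with injury passed the test. It had 2.92, 2.20, 0.640 and 1.83 CPM in injured *yap1* Crispants, against 3.45, 2.07 and 1.40 CPM in uninjured *yap1* Crispants. It had 3.36, 2.22 and 1.11 CPM in injured *wwtr1* Crispants, against 1.90, 2.43 and 5.18 CPM in uninjured *wwtr1* Crispants. Injured WT had 1.95, 0.791 and 0.971 CPM, against 3.22, 2.28 and 2.53 CPM in uninjured WT. The groups overlapped in both Crispants and did not overlap in WT. The share of all genes whose WT libraries separate in this way was not counted.

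Its log2 fold change was -0.28 in *yap1* Crispants (SE 0.50, adjusted p = 0.76), -0.51 in *wwtr1* Crispants (SE 0.54, adjusted p = 0.585) and -1.11 in WT (SE 0.55, adjusted p = 0.157). The WT estimate had the same size as that of *axin2*, but its 95% confidence interval ran from -2.26 to 0.04. The mean effect was -0.63 (SE 0.31, adjusted p = 0.107).

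Ordered by group mean, the levels of ENSDARG00000021789 were 404 CPM in injured *yap1* Crispants, 463 in injured *wwtr1* Crispants and 502 in injured WT, followed by 1166 in uninjured WT, 1249 in uninjured *yap1* Crispants and 1311 in uninjured *wwtr1* Crispants. Neighbours in this order overlapped, except at the step between injured and uninjured groups. The order of *axin2* was 63.6 CPM in injured WT, 73.7 in injured *wwtr1* Crispants and 77.8 in injured *yap1* Crispants, then 126 in uninjured *yap1* Crispants, 138 in uninjured WT and 139 in uninjured *wwtr1* Crispants. Its neighbours likewise overlapped except at the step between the states. ENSDARG00000031894 had means between 1.24 CPM in injured WT and 3.17 CPM in uninjured *wwtr1* Crispants, and every neighbouring pair overlapped.

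Summed markers of some other tissues, though not of all, moved with injury beside these rows. Each sum follows the most abundant genes of its list. The lowest gene mean over the libraries was 0.334 CPM in fin mesenchyme, 22.8 in notochord and 314 in epidermis. For the mean effect 17.6% of all genes tested were DEGs, 1940 higher and 1752 lower. The 4 fin mesenchyme genes (*and1*, *and2*, FBLN1 and *hmcn2*) summed to between 21202 and 57623 CPM in injured libraries and between 59511 and 117753 CPM in uninjured libraries, and 3 of them were lower DEGs for the mean effect. The 5 notochord genes summed to between 299 and 2326 CPM in injured and between 2739 and 6681 CPM in uninjured libraries, with 3 lower DEGs. Of the 5 epidermis genes 1 was a lower DEG for the mean effect, or 20%, close to the share of all genes. The sum of the 5 was 48379 to 98986 CPM in injured and 104145 to 157796 CPM in uninjured *yap1* Crispants. It was 55297 to 86849 CPM in injured and 124017 to 129269 CPM in uninjured *wwtr1* Crispants, and overlapped between the states in WT. The listed macrophage marker *csf1ra* had 2.19 to 5.84 CPM in injured and 0.0161 to 1.96 CPM in uninjured libraries. It was a higher DEG in WT and in *wwtr1* Crispants, while its log2 fold change of 2.24 in *yap1* Crispants did not pass. The listed neutrophil marker *lyz* had 0.784 to 4.62 CPM in injured and 0.0991 to 0.619 CPM in uninjured libraries. Each was the only gene of its list with a match. Summed levels of skeletal muscle, lateral line, red blood cell, endothelium, neuron and pigment cell markers overlapped between the states. For the mean effect 1 of 3 neuron genes was a higher DEG, and of 4 pigment cell genes 1 was higher and 1 lower. The other tissues named with them had 0 DEGs. The part of shifts in tissue markers in the changes of *axin2* and ENSDARG00000021789 was not tested. In bulk tissue, fewer cells of a type and less RNA per cell cannot be told apart.

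The second question was whether targeting *yap1* or *wwtr1* changed the level of the rows within a state. No such difference passed for any of the 3 rows, and the groups overlapped in every one of these comparisons. In injured fish *axin2* differed by 0.29 on the log2 scale in *yap1* Crispants against WT (95% confidence interval -0.21 to 0.79, adjusted p = 0.794) and by 0.21 in *wwtr1* Crispants against WT (-0.32 to 0.75, adjusted p = 0.993). In uninjured fish it differed by -0.12 in *yap1* Crispants against WT (-0.66 to 0.41, adjusted p = 0.956) and by 0.02 in *wwtr1* Crispants against WT (-0.51 to 0.55, adjusted p = 1). These intervals reach -0.66 and 0.79, so equal levels were not shown.

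ENSDARG00000021789 differed by -0.31 in injured *yap1* Crispants against injured WT (-0.68 to 0.05, adjusted p = 0.674) and by -0.12 in injured *wwtr1* Crispants against injured WT (-0.51 to 0.27, adjusted p = 0.995). Its uninjured differences were 0.10 in *yap1* Crispants (-0.29 to 0.49, adjusted p = 0.951) and 0.17 in *wwtr1* Crispants (-0.22 to 0.56, adjusted p = 1), each against WT. The intervals of ENSDARG00000031894 were wider, and for injured *wwtr1* Crispants against injured WT ran from -0.31 to 2.00. Between the Crispants, *axin2* differed by 0.08 injured and -0.14 uninjured in *yap1* against *wwtr1* Crispants, and ENSDARG00000021789 by -0.19 injured and -0.07 uninjured, with adjusted p of 0.994 or more in each case.

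Few genes of any kind passed in these comparisons. DEGs made up 2.24% of all genes tested in uninjured *yap1* Crispants against WT, 461 higher and 8 lower, and 0.834% in uninjured *yap1* against *wwtr1* Crispants. In the other 4 comparisons edgeR called 0%. Of these, injured *yap1* Crispants against WT had 1731 genes at an unadjusted p under 0.05 and 164 DEGs by DESeq2. Injured *wwtr1* Crispants against WT had 1047 and 19, and uninjured *wwtr1* Crispants against WT had 816 and 23. Injured *yap1* against *wwtr1* Crispants had 1158 and 171. If no gene differed, a share of about 0.05 of the 20979 genes would be expected at an unadjusted p under 0.05. The 1047 and 816 do not exceed that share.

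**Figure D2:**
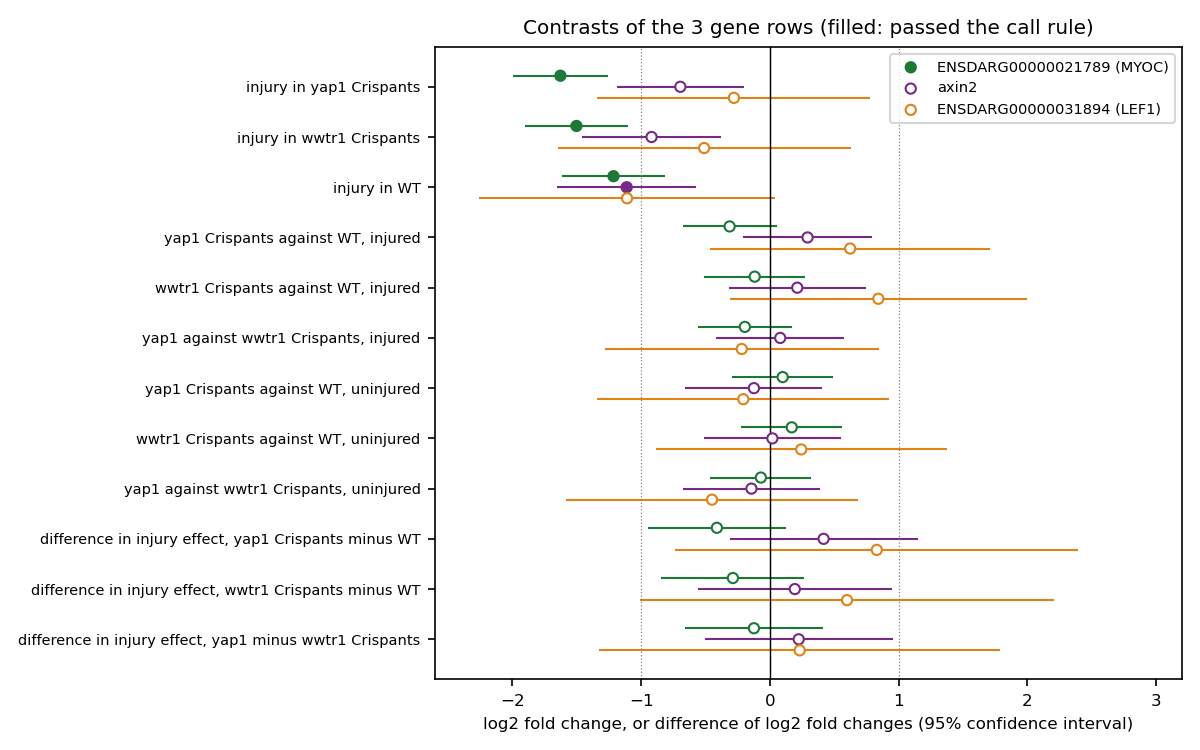
Log2 fold changes of the 3 rows in 12 contrasts, with 95% confidence intervals; filled points passed the DEG rule and dotted lines mark a log2 fold change of 1 in each direction. The injury contrasts of ENSDARG00000021789 and that of *axin2* in WT are filled, and every interval of a genotype contrast or of a difference in injury effect includes 0.

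The third question was whether the response to injury itself differed between genotypes, which was tested as an interaction. The injury effect on *axin2* differed by 0.42 in *yap1* Crispants minus WT on the log2 scale (95% confidence interval -0.31 to 1.15, adjusted p = 0.809), and by 0.19 in *wwtr1* Crispants minus WT (-0.56 to 0.95, adjusted p = 1). The first of these values ranged from 0.09 without replicate 3 of injured WT to 0.68 without replicate 1 of injured WT. For ENSDARG00000021789 the difference was -0.41 in *yap1* Crispants minus WT (-0.95 to 0.12, adjusted p = 0.724) and -0.29 in *wwtr1* Crispants minus WT (-0.84 to 0.27, adjusted p = 1). For ENSDARG00000031894 it was 0.83 (-0.74 to 2.40, adjusted p = 0.826) and 0.60 (-1.01 to 2.21, adjusted p = 1) in the same comparisons. No interaction passed, so a different response of *axin2* in WT, where it was a DEG, and in the Crispants, where it was not, was not shown. edgeR called 0% of all genes for each interaction. For *yap1* Crispants minus WT, 1711 genes had an unadjusted p under 0.05 and DESeq2 called 140. These numbers were 584 and 1 for *wwtr1* Crispants minus WT, and 530 and 1 for *yap1* minus *wwtr1* Crispants. The 584 and 530 lie below the share of 0.05 of all genes that would be expected if no gene differed.

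The balance between *axin2* and ENSDARG00000021789 was read within each library as the ratio of their counts, which does not depend on library size. Injured *yap1* Crispants had 31.5, 15.1, 14.4 and 19.4 *axin2* counts per 100 counts of ENSDARG00000021789, against 10.9, 8.77 and 11.0 in uninjured *yap1* Crispants, so that every injured library was higher. Injured *wwtr1* Crispants had 20.5, 16.0 and 12.6, against 7.52, 11.1 and 13.9 in uninjured *wwtr1* Crispants, with an overlap. Injured WT had 17.9, 12.3 and 7.86, against 16.4, 10.3 and 9.45 in uninjured WT, also with an overlap.

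The log2 ratio changed by 0.91 with injury in *yap1* Crispants (two-sided exact permutation p = 0.0571, 0.343 after Benjamini-Hochberg adjustment over 6 tests). It changed by 0.61 in *wwtr1* Crispants (exact p = 0.2, adjusted 0.6) and by 0.04 in WT (exact p = 1, adjusted 1). With 3 libraries against 3 the smallest p possible is 0.1, and with 4 against 3 it is 0.0286. The change in *yap1* Crispants exceeded that in WT by 0.87 (exact permutation p = 0.114 over 700 arrangements, 0.686 adjusted over 6 tests), a test added after the values were seen, and did not pass. Against ENSDARG00000031894 the log2 ratio of *axin2* changed by -0.35 in *yap1* Crispants, -0.39 in *wwtr1* Crispants and 0.03 in WT, with exact permutation p of 0.629, 0.5 and 1.

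**Figure D3:**
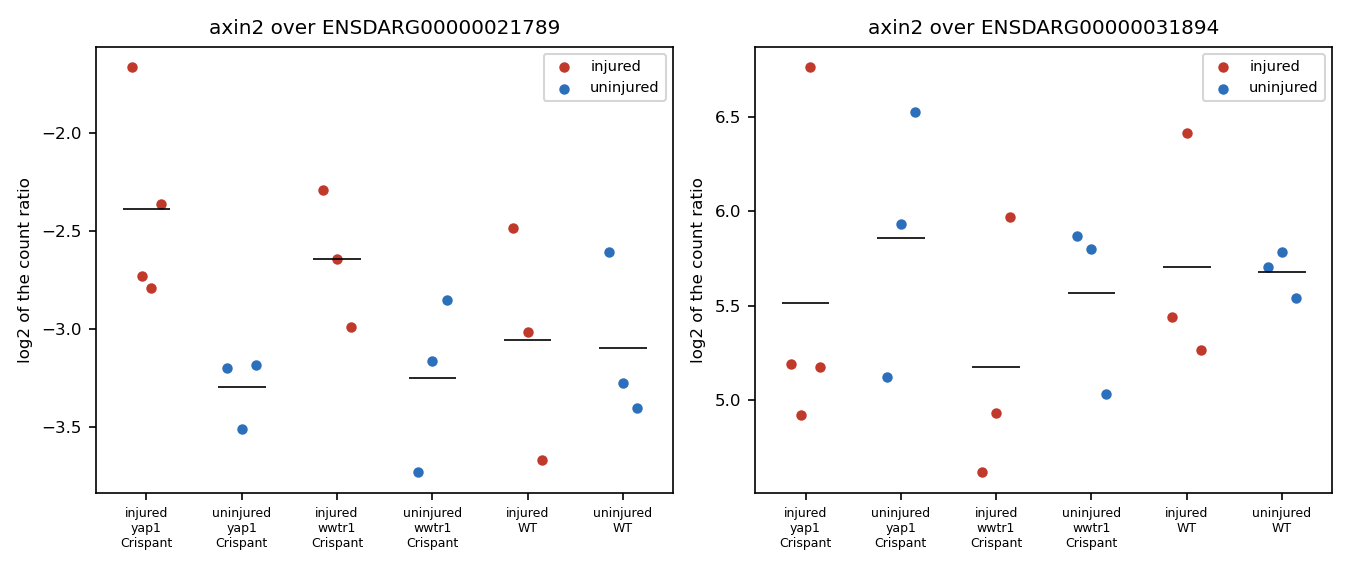
Log2 ratio of *axin2* counts to those of ENSDARG00000021789 (left) and of ENSDARG00000031894 (right) in every library, with a line at each group mean (red, injured; blue, uninjured). In the left panel the 4 injured *yap1* Crispant libraries all lie above the 3 uninjured ones, and the other genotypes overlap.

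Libraries of one state were then compared for whether the rows varied together. Across the 9 uninjured libraries *axin2* and ENSDARG00000021789 had a Pearson r of -0.54 (exact permutation p = 0.121, 0.162 adjusted over 4 relations) and a Spearman rho of -0.42 (exact p = 0.27, adjusted 0.448). Without the 2 libraries farthest from the median of ENSDARG00000021789, r was 0.03. Across the 10 injured libraries r was -0.39 (permutation p = 0.265, adjusted 0.265) and rho -0.20 (permutation p = 0.583, adjusted 0.583), and r was -0.17 without the 2 farthest.

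*axin2* and ENSDARG00000031894 had positive values in both states. Across uninjured libraries r was 0.62 (exact permutation p = 0.0788, adjusted 0.162) and rho 0.37 (exact p = 0.336, adjusted 0.448), and across injured libraries r was 0.53 (permutation p = 0.109, adjusted 0.162) and rho 0.42 (permutation p = 0.234, adjusted 0.448). Without the 2 farthest libraries r was 0.50 in uninjured and 0.76 in injured fish. None of the 4 relations passed.

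The genes whose log2 CPM over all 19 libraries was most like each row were listed among 15144 named genes with at least 1 CPM on average. These values describe libraries that share the step between injured and uninjured fish. For *axin2* they were ZIC2 (r = 0.97), a zinc finger transcription factor, *twist3* (0.97), a basic helix-loop-helix transcription factor, the adhesion G protein-coupled receptor ADGRG6 (0.97), the ecto-nucleotidase NT5E (0.97) and *proza* (0.96). After each group's mean was taken away, r with *axin2* was between 0.87 and 0.90 for all 5. The genes of each row were chosen by r over the same 19 libraries, so these within-group values are no separate test. For ENSDARG00000021789 they were *mhc1zfa* (0.98), *spint1a* (0.97), TMEFF2 (0.97), HECW2 (0.97) and *zgc:136930* (0.96), with r between 0.20 and 0.80 within groups. For ENSDARG00000031894 the leading genes were IGDCC4 (0.88), a gene with only a clone-based name (0.84), GPM6A (0.84), PALM (0.83) and the T-box factor TBX18 (0.83). No gene was among the nearest of more than one row. Within groups *axin2* had r of -0.35 with ENSDARG00000021789 and 0.49 with ENSDARG00000031894, and the last 2 rows had r of -0.71 with each other.

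The other genes of the Wnt pathway were read from a list of 103 symbols, of which 5 had no match, and 94 of the 100 rows matched were tested. For the mean injury effect 13 were higher DEGs and 16 were lower DEGs, which is 30.9% of the list beside 17.6% of all genes, with a median log2 fold change of -0.23 beside -0.03 over all genes. By genotype, 4 were higher and 14 lower in *yap1* Crispants (19.1% of the list beside 9.91% of all genes), 6 higher and 12 lower in *wwtr1* Crispants (19.1% beside 11%), and 7 higher and 19 lower in WT (27.7% beside 16%). The counts are a description, since the list was chosen with results of these data known.

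Among the 21 ligand rows tested 2 were higher and 6 lower, or 38.1% beside the 17.6% of all genes. WNT4 (mean log2 fold change -1.09, SE 0.09), the WNT7A row ENSDARG00000044827 (-1.58, SE 0.19) and *wnt2* (-1.87, SE 0.23) fell, and WNT5A, a ligand best known for signalling that does not use β-catenin, rose (1.12, SE 0.16). This WNT7A row averaged 75.3 ± 11.6 CPM in injured WT and 247 ± 53.7 CPM in uninjured WT (SD, n = 3 each). None of the 5 rows for ligand release and agonists passed. Among 21 receptor rows 2 were higher and 5 lower (33.3%), with falls in FZD8 (-1.85, SE 0.14), the R-spondin receptor *lgr6* (-1.91, SE 0.24) and FZD9 (-2.99, SE 0.47), while the co-receptor LRP5 (-0.85, SE 0.14) stayed under the fold threshold.

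Inside the cell, 2 of 14 relay and destruction complex rows rose (14.3%, below the share of all genes), *gsk3bb* (1.24, SE 0.29), a kinase that marks β-catenin for degradation, and *ctnnb2* (1.14, SE 0.27), a β-catenin gene, and none fell. CTNNB1, the other β-catenin gene, had 0.57 (SE 0.16). Of the 8 nuclear partners, which stand closest to Lef1, TCF7 rose (1.20, SE 0.17) and TCF7L2 fell (-1.09, SE 0.17). That is 25% of only 8 rows, beside the 17.6% of all genes. TCF7 averaged 58.3 ± 12.8 CPM in injured WT and 20.3 ± 5.11 CPM in uninjured WT (SD, n = 3 each), and the LEF1 row, with 1.24 ± 0.625 CPM in injured WT and 2.68 ± 0.491 CPM in uninjured WT, did not pass.

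Secreted inhibitors changed in both directions, with 5 of 14 higher and 3 lower (57.1%). DKK3 (1.87, SE 0.15) and SFRP2 (2.08, SE 0.25) rose, and *notum1b* (-1.48, SE 0.21), which encodes an enzyme that removes the lipid from Wnt ligands, and *frzb* (-2.71, SE 0.43) fell. Of the 11 feedback and target genes, the group to which *axin2* belongs by role, 1 was higher and 1 lower for the mean effect. That share of 18.2% is close to the 17.6% of all genes. Counted by genotype, 1 was higher and 3 lower in WT (36.4% beside 16%). In *yap1* Crispants 0 passed, beside 9.91% of all genes, and in *wwtr1* Crispants 1 was lower (9.09% beside 11%). None of the 11 rows passed for a difference in injury effect between genotypes, beside 0% of all genes. A different response of this group between genotypes was therefore not shown. The feedback inhibitor NKD1 fell (-1.16, SE 0.19) and the transcription factor SP8 rose (1.17, SE 0.24), while the MYC row ENSDARG00000007241 (-0.83, SE 0.15) and NKD2 (-0.93, SE 0.22) were, like *axin2* at -0.91, lower without reaching the fold threshold.

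**Figure D4:**
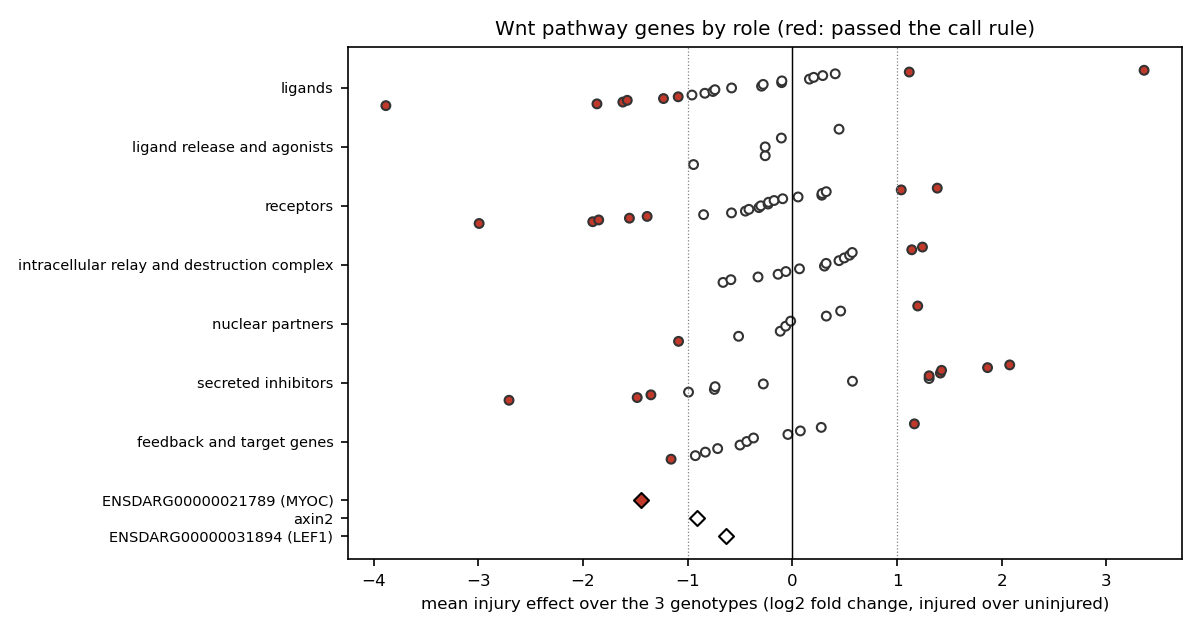
Mean injury effect over the 3 genotypes (log2 fold change, injured over uninjured) for the 94 tested rows of the Wnt list, 1 point per gene row, grouped by role, with the 3 rows as diamonds at the bottom; red points passed the DEG rule. The diamond of ENSDARG00000021789 at -1.45 is red, and those of *axin2* at -0.91 and ENSDARG00000031894 at -0.63 are white.

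Between genotypes few rows of the list passed. In uninjured *yap1* Crispants 7 of the 94 rows were higher than in uninjured WT and 0 were lower by edgeR, namely FZD7, *dvl2*, *ctnnb2*, 2 rows paired with GSK3A, TCF7L1 and SP8. That is 7.45% of the list beside 2.24% of all genes, where 461 of 469 DEGs were higher, and 87 rows of the list did not pass. *axin2* and both other rows did not pass in that comparison. In uninjured *yap1* against *wwtr1* Crispants 3 of the 94 rows were higher and 0 lower by edgeR, or 3.19% beside 0.834% of all genes, where 174 of 175 DEGs were higher.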

How the data were processed

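Groups came from the sample labels. The authors used Trim Galore for trimming, BWA-MEM for alignment to GRCz11 and HTSeq for counting on Ensembl genes, and deposited raw counts per gene; tool versions and strand use are not given in the sources used here, so overlapping genes and close paralogs are uncertain. The analysis used edgeR 4.0.16 under R 4.3.3 (filterByExpr, TMM, 1 robust quasi-likelihood fit over 6 groups, prior count 0.125), tested on simulated data beforehand. DESeq2 1.42.0 was an alternative, with RLE size factors, other filters, only the groups compared, a replicate block, adjusted p alone, a prior count of 2 and each library left out.

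Library totals had a median of 44618000. A floor of 3 counts was 0.0367 to 0.0966 CPM and covers counting error only, as reads carry no molecular identifiers. No libraries of a group agreed within sampling noise.

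Ratios used counts plus 0.5. Named genes were the members, the 5 genes with the highest r to each, and at most 4 genes per Wnt role with the smallest adjusted p for the mean injury effect. Members and lists were chosen with earlier results of these data known. The tests planned for *lef1* were run on ENSDARG00000021789 and on ENSDARG00000031894. The reference named 29201 of 32520 IDs (19775 of those tested). Coordinates and sequences were not used here.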

Additional observations from a re-analysis of the deposited data

Results flagged for a closer look

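In the 1 group with 4 libraries, injured *yap1* Crispants, the levels of the 3 rows and the 2 log2 ratios were examined for an isolated library, 5 values in all, and 2 stood apart. *axin2* had 107 CPM in replicate 1 and 66.9 to 70.7 CPM in the other libraries, so that the gap was 0.904 of the range, above the critical value of 0.829. Without that library the injury effect on *axin2* in *yap1* Crispants was -0.89 (edgeR adjusted p = 0.0139) in place of -0.70 (adjusted p = 0.0508). The change of -0.89 was still short of the fold threshold. The log2 ratio of *axin2* to ENSDARG00000031894 was 6.76 in replicate 3, where ENSDARG00000031894 was at 0.640 CPM, with a gap of 0.855 of the range. Without it the change of that ratio with injury was -0.76 (exact permutation p = 0.3) in place of -0.35. For 1 value, chance alone marks about 1 in 20 groups in this way. With 5 values examined, some built from the same counts, the chance of at least 1 mark is higher.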

How the results depend on the processing

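Of 703 values recomputed for 49 results, 666 kept their direction and their side of the threshold. Most of these results had not passed in the main fit, so the total mainly counts values that again did not pass. The *axin2* call in WT was kept in 4 of 6 fits with a library left out. The injury effects of ENSDARG00000021789 passed under every alternative run. By adjusted p alone, the *axin2* effects of -0.92 in *wwtr1* Crispants and -0.91 on average passed. With a pseudocount of 5 the WT ratio to ENSDARG00000031894 was -0.0303. Of 45 same-numbered pairs of libraries, 12 had r over 0.1 after each group's mean was taken away (-0.24 to 0.41). The highest r was between replicate 1 of injured WT and replicate 1 of injured *yap1* Crispants. Pairs with different numbers were not compared, so whether the replicate numbers pair the samples was not tested. The replicate block gave -1.13 (edgeR adjusted p = 0.00324) for *axin2* in WT and changed no call of the 3 rows.

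With each library left out, the lowest and highest values were as follows; each cause was not tested. *axin2* ran from -1.38 to -0.81 for injury in WT and from -1.06 to -0.75 for injury in *wwtr1* Crispants. It ran from -0.89 to -0.63 for injury in *yap1* Crispants and from -0.998 to -0.82 for the mean effect. In *yap1* Crispants against WT it ran from -0.22 to 0.0466 uninjured and from -0.0014 to 0.56 injured, in *wwtr1* Crispants against WT from -0.15 to 0.19 uninjured and from -0.10 to 0.48 injured, and in *yap1* against *wwtr1* Crispants from -0.28 to 0.0272 uninjured and from -0.11 to 0.17 injured. Its difference in injury effect ran from 0.09 to 0.68 for *yap1* Crispants minus WT, from -0.11 to 0.46 for *wwtr1* Crispants minus WT and from 0.03 to 0.36 for *yap1* minus *wwtr1* Crispants. ENSDARG00000021789 ran from -0.0226 to 0.18 in uninjured *yap1* Crispants against WT, from -0.19 to 0.0286 in uninjured *yap1* against *wwtr1* Crispants, and from -0.23 to 0.0288 for the difference in injury effect between them. ENSDARG00000031894 ran from -0.57 to 0.13 for injury in *yap1* Crispants and from -0.93 to 0.0381 in *wwtr1* Crispants, from -0.62 to 0.0461 and from -0.31 to 0.51 in uninjured *yap1* and *wwtr1* Crispants against WT, from -0.86 to 0.10 uninjured and -0.55 to 0.20 injured in *yap1* against *wwtr1* Crispants, and from -0.32 to 0.65 for the difference in injury effect between them. In WT the ratio of *axin2* ran from -0.25 to 0.35 against ENSDARG00000021789 and from -0.32 to 0.25 against ENSDARG00000031894.

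Counts of DEGs over all genes moved more. In uninjured *yap1* Crispants against WT edgeR called 469, DESeq2 774 and a fit of only the groups compared 245, and leaving out replicate 2 of uninjured WT gave 145. In uninjured *yap1* against *wwtr1* Crispants these were 175, 435 and 328, with 0 without replicate 2 of uninjured *wwtr1* Crispants. For injury in *yap1* Crispants the count of 2078 became 1322 with only the groups compared, and for the mean effect 3692 became 2155 with at least 10 counts in every library. For the difference in injury effect between *yap1* Crispants and WT the main edgeR fit called 0 and DESeq2 140. Without replicate 3 of uninjured WT, 266 genes passed, and none of the 3 rows passed there. Leaving out replicate 1 of uninjured *yap1* Crispants gave 7, and leaving out replicate 1 of injured *yap1* Crispants gave 1. With 25 to 238 counts a library, ENSDARG00000031894 gives wide intervals.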
